A study of Mustela putorius furo and Mus musculus with 4 samples.

Results

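The cells described here are deep layer neurons of the embryonic ferret cortex, marked by *FEZF2* together with *RSPO3*, *CNTN3*, *CCBE1*, *NWD2* and *RALYL*. They were chosen from the counts themselves, as cells with a unique molecular identifier (UMI, 1 counted transcript molecule) of *FEZF2*, a UMI in at least 2 of the 6 genes *RSPO3*, *CNTN3*, *CCBE1*, *NWD2*, *RALYL* and *NECAB1*, no UMI of *EOMES* (intermediate progenitors), *LHX6* or *ADARB2* (interneurons), and fewer than 3 detected of the 6 layer 6 genes *NTS*, *ZFPM2*, *TLE4*, *FOXP2*, *HS3ST4* and *CDH18*. This gave 682 of the 23241 ferret cells with at least 750 detected genes, or 2.93% (exact 95% interval 2.72% to 3.16%). The study as a whole profiled cortical radial glia and their progeny in mouse and ferret by droplet single-cell RNA sequencing. All cells used here come from the bilateral cortex of 1 ferret embryo at embryonic day 39 (E39), dissociated with papain. No genotype, treatment or transgene is stated for this embryo in the labels or by the study.

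The labels list 2 ferret samples, and the barcodes carry 2 suffixes that could not be tied to them, so the cells are reported as barcode set 1 and barcode set 2 of 1 embryo, with no test between conditions. A gene is called past the fold here when its level in CPM, the UMIs of a gene scaled to all UMIs of a group, with 5 CPM added, differed at least 2-fold in the same direction in each set. Intervals are exact 95% intervals and cover counting error only. The sets stood apart. Set 1 held 10187 cells with a median of 2556 UMIs and set 2 held 13054 cells with a median of 3563 UMIs. Interneuron cells made up 1.00% of set 1 and 6.51% of set 2. Of all barcodes, 38 occurred in both sets. One of these barcodes belonged to a member, and no barcode was a member in both sets. Whether a set is a library, a chip lane or a piece of tissue cannot be told apart from these files.

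*FEZF2* encodes a zinc finger transcription factor that directs cortical neurons to a deep layer, corticofugal fate, with axons to the brainstem and spinal cord. *BCL11B*, also called CTIP2, acts downstream of it in neurons of the corticospinal tract. *RSPO3* encodes a secreted R-spondin, a ligand that raises WNT signaling by keeping the ubiquitin ligases ZNRF3 and RNF43 away from WNT receptors through binding of LGR receptors. *CNTN3* is a cell adhesion protein of the contactin family, *CCBE1* is a secreted protein that helps to activate the growth factor VEGFC, *RALYL* is an RNA-binding protein and *NECAB1* is a calcium-binding protein of neurons.

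The 682 members were unevenly spread over the sets. Set 1 held 152 of them, 1.49% of its cells (1.27% to 1.75%), and set 2 held 530, 4.06% of its cells (3.73% to 4.41%). They were the deepest cells compared here, with a median of 7788.5 UMIs and 3009 genes, against 4520 UMIs in layer 6 cells and 3417 in upper layer cells. The rules of all these groups ask for UMIs of several genes, which a deeper cell meets more readily. The part of the rules in these depths was not tested. The 15248 cells with at least 2500 UMIs were also thinned to 2500 UMIs each, and shallower cells were left out. This kept 52.0% of the cells of set 1 and 76.2% of those of set 2. When the rule was applied to the thinned counts, 331 of the 15248 cells met it (2.17%, 1.95% to 2.41%). Set 1 then gave 1.57% (1.25% to 1.94%) and set 2 gave 2.49% (2.19% to 2.82%), so set 2 still held the larger share.

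Requiring *FEZF2* left 2142 cells, the 3 excluded genes 1898, the positive genes 785 and the limit on layer 6 genes 682. *FEZF2* itself was sparse. Of the members, 240 held a single *FEZF2* UMI, 133 held 2, and the highest count was 12. Among the 952 interneuron cells, taken as cells with *LHX6* or *ADARB2* and at least 2 of *GAD1*, *GAD2*, *DLX1*, *DLX2* and *DLX5*, which should lack *FEZF2*, 2.73% had a UMI (1.79% to 3.98%) at a median of 2743.5 UMIs. In the same cells *RSPO3* was found in 0.32% (0.07% to 0.92%). It was found in 57.9% of members (54.1% to 61.7%), which are deeper, at a median of 7788.5 UMIs. The rule counts *RSPO3*, so its share in members is partly fixed by the choice of cells and is description only.

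The genes of the rule are given as a description of what was selected. *FEZF2* stood at 293 CPM in set 1 and 367 CPM in set 2, and at 355 CPM over both, against 176 CPM in layer 6 cells. *RSPO3* stood at 280.1 and 198 CPM in the sets, while layer 6 cells had 51.2 and 26.3 CPM and upper layer cells 4.07 and 4.05 CPM. *CNTN3* was detected in 64.4% of members at 123 and 247 CPM, *NWD2* in 67.0% at 175 and 247 CPM, and *NECAB1* in 64.4% at 112 and 222 CPM. *CCBE1* went the other way between the sets, with 284 CPM in set 1 and 149 CPM in set 2, in 48.1% of members. *RALYL* was the most widely detected positive gene, in 83.6% of members, at 600 and 595 CPM. Of the layer 6 genes that the rule limits, *TLE4* remained in 52.6% of members and *ZFPM2* in 36.2%, whereas *HS3ST4* was found in 5 cells.

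**Figure D1:**
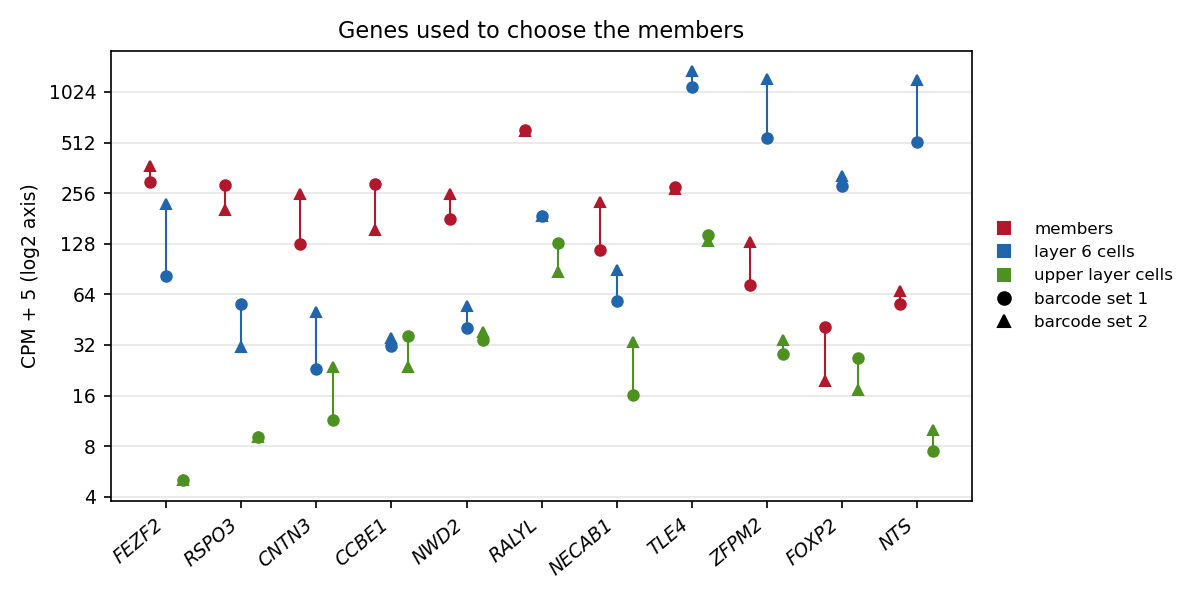
Levels of the genes that chose the members, as CPM plus 5 on a log2 axis, in members (red), layer 6 cells (blue) and upper layer cells (green), with circles for barcode set 1 and triangles for barcode set 2. *FEZF2* and the 6 positive genes are highest in members in both sets, and *TLE4*, *ZFPM2*, *FOXP2* and *NTS* are highest in layer 6 cells, as the rules require.

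Levels on both sides of the edges of the rule are given as description. Members with exactly 2 positive genes (184 cells) had 43.5 CPM of *RSPO3* and 94.9 CPM of *BCL11B*, a gene the rule did not use. The 381 *FEZF2* cells with 1 positive gene, just outside, had 10.1 and 55.5 CPM. At the layer 6 limit, the 208 members with 2 layer 6 genes had 277 CPM of *ZFPM2* and 772 CPM of *SOX5*, and the 66 cells with 3 such genes, just outside, had 549 and 1113 CPM. The rule counts *RSPO3* and *ZFPM2*, so their steps at these edges are partly fixed by it, while *BCL11B* and *SOX5* are outside it. The 1157 cells with no *FEZF2* UMI that met the rest of the rule had 45.8 CPM of *BCL11B*. Members with 1 *FEZF2* UMI had 163 CPM, and all members 214 CPM.

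Whether the members form one neighborhood was described from the 20 nearest cells of each member, in 30 principal components of 2000 variable genes from which the genes of the rule and of the upper layer definition were left out. Of the members' neighbors, 61.0% were members, while members are 2.93% of all cells. The sets were not merged in this space, and 83.5% of the members' neighbors were from the member's own set, as were 79.4% of those of upper layer cells. A further 5.15% were layer 6 cells and 7.50% upper layer cells. The 395 members with an *RSPO3* UMI had 74.1% member neighbors, and the 287 without one had 43.1%. There were 46 members with no member neighbor, 42 of them without *RSPO3*. *FEZF2* cells with 1 positive gene had 8.87% member neighbors.

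The label was checked against markers, most of which the rule did not use. Of the 682 members, 643 (94.3%) held UMIs of at least 2 of 9 excitatory neuron genes, and *NEUROD6* was found in 88.9% and *NEUROD2* in 79.9%. These 9 genes summed to 1606 and 1597 CPM in members, 2683 and 2796 CPM in upper layer cells and 1488 and 1665 CPM in layer 6 cells. Against upper layer cells 3 of the 9 were lower (*SLC17A6*, *NEUROD1* and *NRN1*) and none higher, with a median log2 difference of -0.79. Against layer 6 cells 1 was higher (*BHLHE22*) and none lower, with a median of -0.45. Markers of other cells were also found. At least 2 of the 8 intermediate progenitor genes, of which the rule excludes *EOMES*, were found in 120 members (17.6%), against 27.8% of upper layer cells and 14.8% of layer 6 cells. At least 2 of 10 radial glia markers (*FABP7* left out, since it is broadly detected) were found in 70 members (10.3%), against 16.1% of layer 6 cells, 6.97% of upper layer cells and 14.9% of interneuron cells. At least 2 cycling genes were found in 30 members (4.40%), and at least 2 endothelial or mural genes in 1. Summed over the 14 interneuron genes, members had 49.7 CPM in set 1 and 32.5 CPM in set 2, and interneuron cells 4986 and 5891 CPM. The rule sets 2 of these genes, *LHX6* and *ADARB2*, to 0 in members, and 7 of them define the interneuron cells, so that this contrast is partly fixed by the choice of cells. *GAD1* was found in 1.76% of members and *GAD2* in 1.03%. Free RNA or doublets behind such UMIs were not tested. The comparisons are therefore also given for neurons only, that is, cells with a UMI of *NEUROD2* or *NEUROD6*, no endothelial or mural UMI, and fewer than 2 radial glia and 2 cycling genes, which keeps 556 members.

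The first comparison asks how these neurons differ from upper layer neurons, taken as cells with at least 2 of *CUX1*, *CUX2*, *BCL6*, *POU3F2*, *INHBA* and *LHX2*, 1 further marker, no *FEZF2*, *EOMES*, *LHX6* or *ADARB2*, and fewer than 3 of the layer 6 genes (7628 cells). Genes higher in members included *BCL11B*, *LDB2*, *CRYM*, 5 GABA-A receptor subunit genes and the neurofilaments *NEFL* and *NEFM*, and genes lower in members included 4 of 8 upper layer genes and 10 of 31 axon guidance genes. Of 8 corticofugal regulators compared, 2 were higher (*BCL11B* and *LMO4*) and 1 was lower (*NR2F1*), with a median log2 difference of 0.17. The lists overlap, since *LMO4* is also in the upper layer list and *BCL11B* in the subcerebral list. Of 8907 genes compared, 209 were higher (2.35% of all genes) and 157 were lower (1.76%), and the median log2 difference over all genes was -0.03. Among neurons only, 212 of 8825 genes were higher (2.4%) and 174 lower (1.97%), and 197 and 147 of them were the same genes. With the further marker not required, which gives 9244 upper layer cells, 203 genes were higher and 194 lower, 185 and 148 of them the same genes.

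Of the subcerebral layer 5 list, 6 of 15 genes compared were higher and none was lower, with a median log2 difference of 1.21. *BCL11B* stood at 207 CPM in set 1 and 215 CPM in set 2, against 12.9 and 27.4 CPM in upper layer cells, a 9.68-fold difference (8.79 to 10.7). It was detected in 67.7% of members and in 7.03% of upper layer cells. *LDB2*, an adaptor of LIM transcription factors, was 4.10-fold higher (3.87 to 4.34), at 217 and 410.4 CPM against 51.1 and 117 CPM. *CRYM*, a thyroid hormone binding protein of corticospinal neurons, stood at 61.0 and 58.7 CPM against 2.26 and 5.05 CPM, or 14.7-fold higher (11.9 to 18.2). *ETV1*, a transcription factor of layer 5, was 9.58-fold higher (7.94 to 11.6) and among neurons only 22.9-fold (17.0 to 31.1). The calmodulin-binding *PCP4* was 5.03-fold higher (4.41 to 5.73) and *NTNG1*, a netrin-related adhesion protein, 2.62-fold (2.31 to 2.95). The 9 others were not past the fold, among them *SOX5* at 592 CPM in members and 605 CPM in upper layer cells. *POU3F1*, a POU factor, had 72.3 CPM against 74.0 CPM in set 1 but 127 CPM against 43.8 CPM in set 2.

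**Figure D2:**
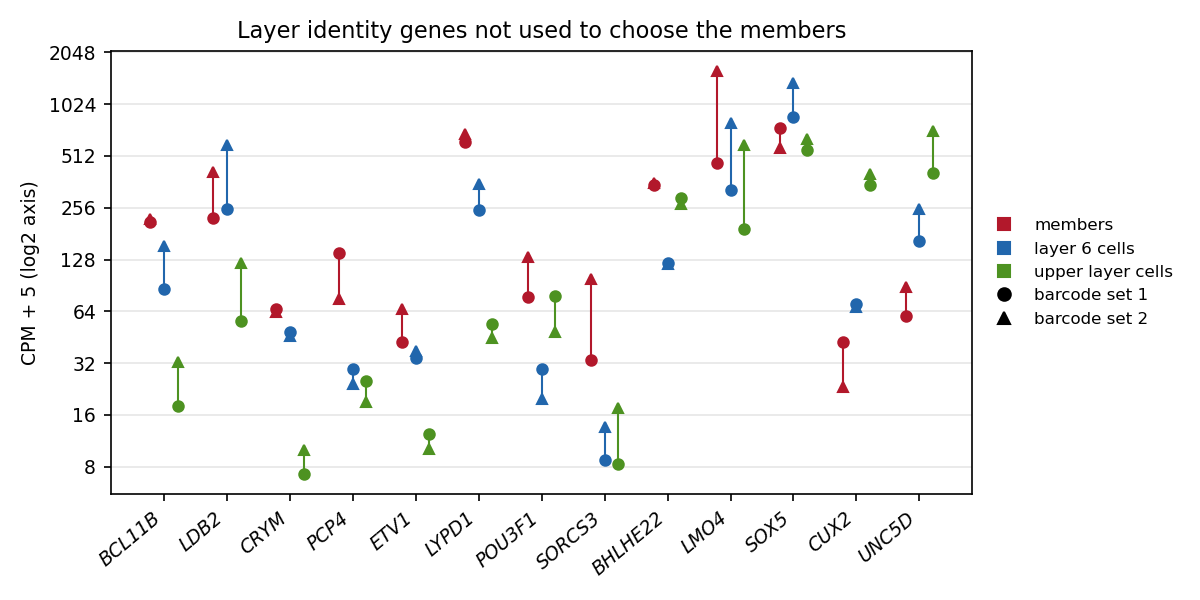
Layer identity genes that the rule did not use, as CPM plus 5 on a log2 axis, in members (red), layer 6 cells (blue) and upper layer cells (green), with circles for barcode set 1 and triangles for barcode set 2. *BCL11B* in members is at 207 and 215 CPM, above both other groups in each set, while *LDB2* is higher in layer 6 cells than in members in each set. *CUX2* is part of the definition of the upper layer cells and is shown as description.

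Outside the definitions and the subcerebral list, *LYPD1*, a modulator of nicotinic receptors, stood at 611 and 679 CPM against 49.2 and 40.0 CPM, 15.4-fold higher (14.5 to 16.4), and 30.1-fold higher among neurons only (27.6 to 32.9). It was the 1 gene past the fold of 5 near-projecting neuron genes compared with upper layer cells, and against layer 6 cells 1 of 5 was lower (*NXPH2*) and none higher, with *LYPD1* past the fold among neurons only. *SV2B*, a synaptic vesicle protein, was at 27.1 and 50.8 CPM against 1.54 and 1.21 CPM, 35.3-fold higher (25.2 to 50.6). The kinesin-related *KIF26A* was 14.8-fold higher (12.3 to 17.7) and the sorting receptor *SORCS1* 11.96-fold (10.2 to 14.0). The synaptic C1q family protein *C1QL3* was higher by different amounts in the sets, at 75.7 CPM against 1.08 CPM in set 1 and 49.5 CPM against 4.63 CPM in set 2. *BRINP3*, *B3GALT2*, *HDAC9*, *CNTNAP5* and *NCAM2* were between 7.37-fold and 9.52-fold higher. *HDAC9*, a histone deacetylase, differed by set within members, at 193 CPM in set 1 and 611 CPM in set 2, and upper layer cells had 40.6 and 81.6 CPM in the same sets. *LMO4* behaved alike, with 462 and 1593 CPM in members and 189 and 591 CPM in upper layer cells, and was the 1 gene of the upper layer list that was higher in members. Both neuropeptide Y receptors that were examined, *NPY1R* (8.60-fold, 7.59 to 9.74) and *NPY5R* (10.1-fold, 8.61 to 11.8), were higher as well and were singled out after their values were seen.

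Of the 8 upper layer genes compared that were not part of the definitions, 4 were lower. *UNC5D*, a netrin receptor of multipolar and upper layer neurons, stood at 55.3 and 83.1 CPM in members against 405 and 709 CPM, 7.60-fold lower (6.90 to 8.37). *PTPRK* was 3.72-fold lower, *RASGRF2* 4.46-fold and *PLXNA4* 5.89-fold. *RORB* and *MEF2C* were not past the fold, at 214 against 158 CPM and 1601 against 1202 CPM. Of the intermediate progenitor list, 3 of 4 genes compared were also lower in members, *NEUROG2*, *INSM1* and *PENK*. The other strongly lower genes included *SEMA3C*, *PRSS12*, *EPHA3*, *TNFAIP8*, *CAMK2N2*, *PID1*, *CA10*, *VCAN*, *SLC17A6* and *PHLDA1*. *SLC17A6*, the vesicular glutamate transporter VGLUT2, was at 24.9 and 15.0 CPM in members and 117 and 110.1 CPM in upper layer cells.

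Of 31 axon guidance genes compared, 10 were lower in members and none was past the fold in the other direction, with a median log2 difference of -0.45. The other 21 included genes at larger values in members, such as the SLIT receptor *ROBO2* at 2258 and 1866 CPM against 1073 and 1032 CPM and the ephrin *EFNA5* at 162 and 156 CPM against 99.7 and 63.8 CPM. The lower genes were the netrin receptors *DCC*, *UNC5C* and *UNC5D*, the ephrin receptors *EPHA3* and *EPHA4*, the semaphorin receptors *PLXNA2*, *PLXNA4* and *NRP1*, and the semaphorins *SEMA3A* and *SEMA3C*. *SEMA3C* was at 20.3 and 18.1 CPM against 189 and 234 CPM, 11.8-fold lower (9.68 to 14.5). *EPHA3* was at 155 and 140.0 CPM against 998 and 1253 CPM, and *DCC* at 68.9 and 134 CPM against 289 and 502 CPM. Each of these 3 genes was lower in members of both sets than in upper layer cells of either set. Against layer 6 cells 3 of 32 guidance genes were lower (*UNC5D*, *PLXND1* and *NRP1*), with 3.78% of all genes lower in that comparison, and none was higher. Among neurons only, *UNC5D*, *EPHA3*, *SEMA3A* and *SEMA3E* were lower, while *NRP1* was at a ratio of 1.11 (0.75 to 1.66) and *PLXND1* was too low to be compared.

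Receptor genes showed both directions. Of 25 glutamate and GABA receptor genes compared with upper layer cells, 8 were higher in members and 3 lower, with a median log2 difference of 0.65. Over all genes 2.35% were higher and 1.76% lower. Of the 8 higher receptor genes, 5 encode subunits of the GABA-A receptor. *GABRB2* stood at 101 and 150.5 CPM against 21.2 and 41.9 CPM, 4.15-fold higher (3.78 to 4.56). *GABRA2* was 4.10-fold higher, *GABRA5* 4.47-fold, *GABRB1* 2.53-fold and *GABRG1* 18.8-fold (13.5 to 26.6), the last from 161 UMIs in members and 47 in upper layer cells. The kainate receptor *GRIK2* was at 281 and 401 CPM against 84.2 and 125 CPM, and the metabotropic receptor *GRM3* at 87.0 CPM in each set against 14.2 and 12.7 CPM. Lower genes were the AMPA receptor *GRIA4* (5.23-fold), the NMDA receptor *GRIN2A* (6.85-fold) and the kainate receptor *GRIK1* (7.77-fold). *GRIN2B* was nearly level, at 299 and 284 CPM, and *GRIA2* was at 1084 and 510 CPM without passing the fold in each set. Among neurons only, *GRIA2* passed it, with log2 differences of 1.20 in set 1 and 1.04 in set 2. There, 9 of 25 receptor genes were higher and 3 lower. Against layer 6 cells 1 of 26 receptor genes was higher (*GABRA2*) and 1 lower (*GRIK3*), with a median log2 difference of -0.22. In that comparison 0.477% of all genes were higher and 3.78% lower.

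**Figure D3:**
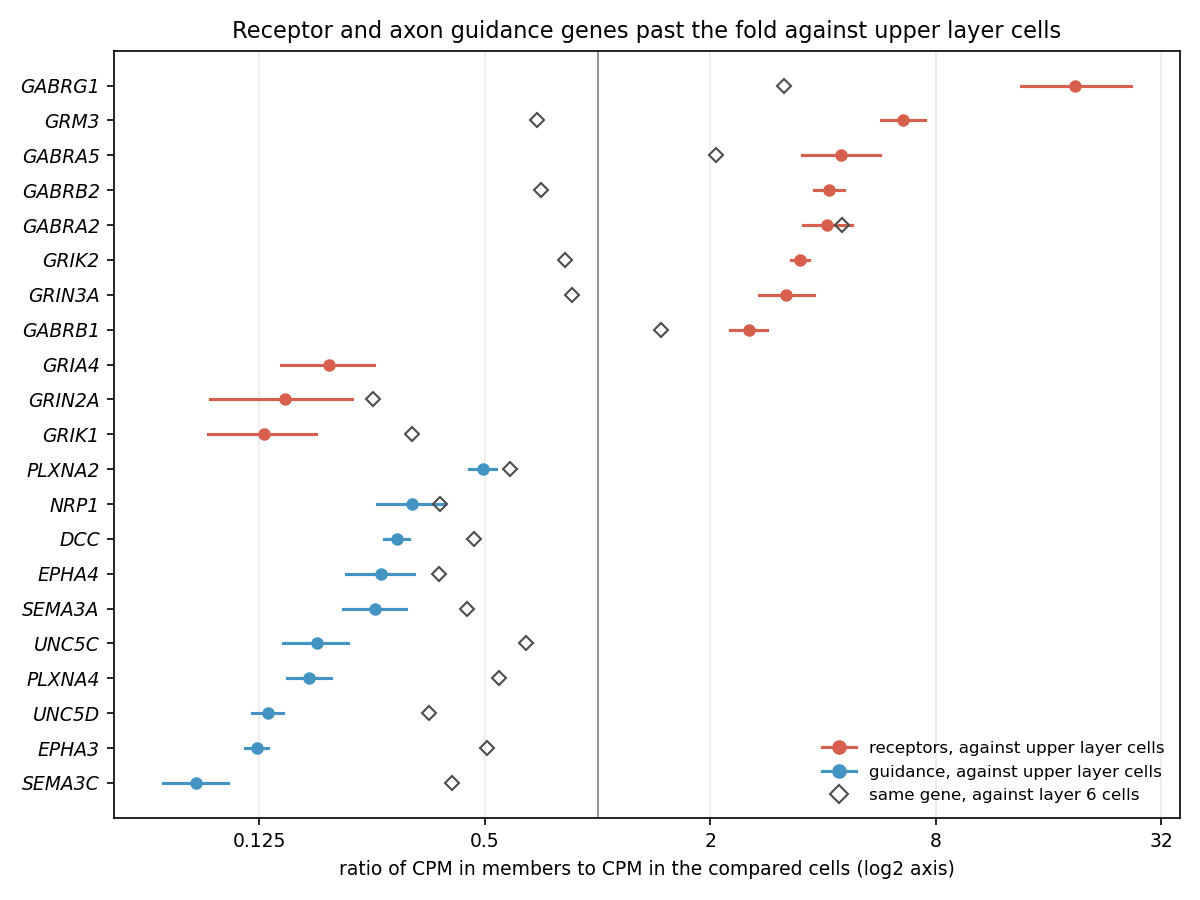
Ratio of CPM in members to CPM in upper layer cells for the receptor (red) and axon guidance (blue) genes past the fold, with exact 95% counting intervals as bars on a log2 axis, and the ratio to layer 6 cells as open diamonds where it could be given. *GABRA2* is the 1 gene with both ratios above 4 and *SEMA3C* has the lowest ratio to upper layer cells.

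Other groups of neuronal genes were mixed. Against upper layer cells 2.35% of all genes were higher in members and 1.76% lower. Of 31 voltage-gated channel genes 3 were higher, *KCNIP1*, *KCNIP4* and *CACNA1A* (2.29-fold), and 2 were lower (*KCNJ3* and *KCNK2*). Of 17 neuronal maturation genes 3 were higher, the neurofilaments *NEFL* (226 against 42.9 CPM) and *NEFM* (454 against 138 CPM) and the postsynaptic *NRGN* (109 against 30.7 CPM). *RBFOX1*, a splicing regulator, was lower, at 1299 and 1317 CPM against 3117 and 3871 CPM. Among contactins and their partners, to which *CNTN3* belongs, 5 of 14 were higher (*CNTN1*, *CNTNAP2*, *CNTNAP5*, *NRCAM* and *PTPRG*, which binds *CNTN3*), 1 was lower (*PTPRZ1*), and *CNTN4* and *CNTN5* were not past the fold. *RELN*, known for Cajal-Retzius cells, was found at 101 and 176 CPM against 34.2 and 13.9 CPM. No more than 6 members held 2 or more of the 7 Cajal-Retzius genes. Against layer 6 cells none of 31 channel genes, 17 maturation genes or 15 contactins and partners was higher in members. Lower there were *CACNA2D3*, *CNTNAP4* and *PTPRG*, with 3.78% of all genes lower.

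**Figure D4:**
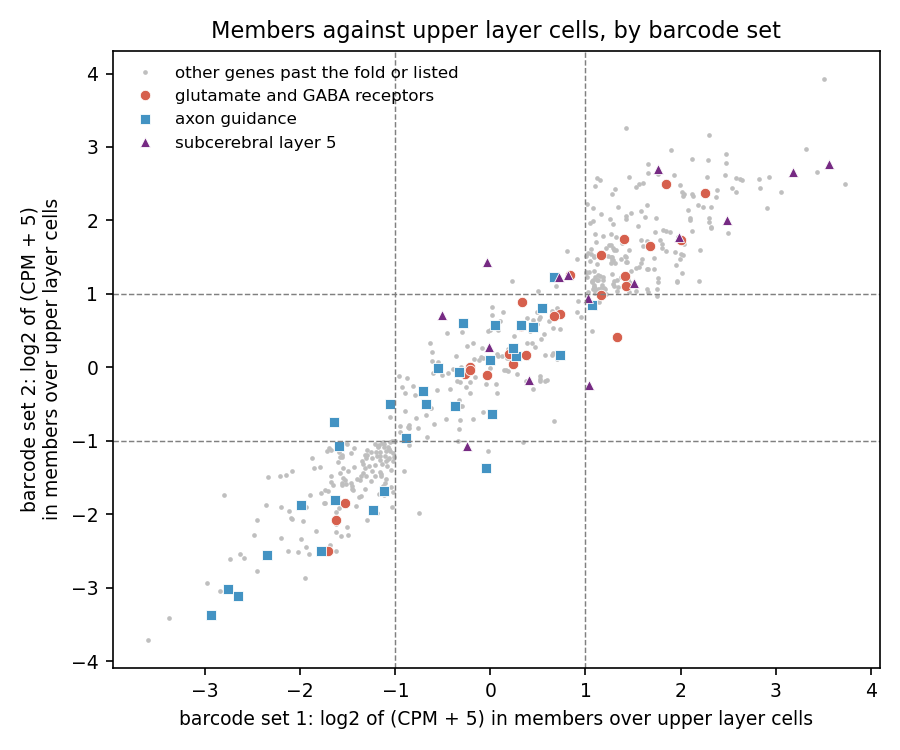
Log2 of the level (CPM plus 5) in members over that in upper layer cells, in barcode set 1 (horizontal) and set 2 (vertical), for genes past the fold in both sets or in one of the gene lists, without the genes that define the groups. Glutamate and GABA receptors (red), axon guidance genes (blue) and subcerebral layer 5 genes (purple) are marked, and dashed lines mark a 2-fold difference. All 10 axon guidance genes past the fold lie at the lower left and 8 receptor genes at the upper right.

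For the ligand and growth factor genes among the markers, the known partners were looked up in the members. None of the 11 genes of the R-spondin and WNT list compared with upper layer cells was past the fold in either direction. *DKK2*, a WNT antagonist outside that list, was higher, at 21.5 and 34.7 CPM against 0.45 and 1.58 CPM (27.9-fold, 19.4 to 41.4). *ZNRF3* was found in 10.6% of members, at 14.8 CPM against 15.2 CPM in upper layer cells. The R-spondin receptors were rare, with a UMI of *LGR4* in 5 members, of *LGR5* in 14 and of *LGR6* in 1. *RNF43* had a UMI in 2 members, *RSPO2* in 3 and *RSPO1* in none of the 682, which allows a share of up to 0.44% of cells with a UMI by the limit of 3 counts, and says nothing of cells whose transcripts were not captured. For *CCBE1*, *VEGFC* was found in 31.4% of members, at 57.6 and 58.7 CPM against 24.4 and 17.3 CPM in upper layer cells (2.94-fold, 2.56 to 3.37), and its protease *ADAMTS3* in 14.8%. The VEGFC receptor *FLT4* was found in no member and *KDR* in 6. Among neurons only the *VEGFC* ratio was 2.99 (2.56 to 3.48), with a log2 difference of 0.95 in set 1, just under the fold. Against layer 6 cells it passed the fold among neurons only (2.33-fold, 1.77 to 3.11).

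The second comparison asks what separates these cells from other deep layer neurons, taken as cells with at least 3 of the 6 layer 6 genes (752 cells, of which 42.6% held *FEZF2*). Fewer genes were higher here, led by *SORCS3*, *IQCJ*, *POU3F1* and *C1QL3*, while *BCL11B* and *LDB2* of the subcerebral list were not past the fold. Of 9432 genes compared, 45 were higher (0.477% of all genes) and 357 lower (3.78%), with a median log2 difference of -0.12. The layer 6 cells also held UMIs of markers of other cells. Whether these came from other cells, free RNA or doublets was not tested. At least 2 endothelial or mural markers were found in 35 of them (4.65%), their summed level was 658 CPM in set 1 and 429 CPM in set 2, against 5.65 and 16.4 CPM in members, and all 5 genes of that list that were compared were lower in members. Of the radial glia list 5 of 11 genes were lower in members (*SOX2*, *HES1*, *VIM*, *HOPX* and *GLI3*) and of the cycling list 2 of 5, and the radial glia genes without *FABP7* summed to 752 and 561 CPM in layer 6 cells and 296 and 191 CPM in members. At least 2 excitatory neuron genes were found in 76.5% of layer 6 cells. The 12 most strongly lower genes were *FN1*, *SPARC*, *APOA1*, *CLDN5*, *LYZ*, *CUNH1orf54*, *SPARCL1*, *LAMA4*, *ETS1*, *RAMP2*, *EMB* and *ADGRL4*, of which several are known from vessels or blood. Among neurons only (556 members and 526 layer 6 cells), 52 of 9029 genes were higher (0.576%) and 131 lower (1.45%), 32 and 80 of them shared with the comparison of all cells.

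The largest log2 difference among genes higher in members, outside the rule, was that of *SORCS3*, a sorting receptor of the VPS10 family, which stood at 28.2 CPM in set 1 and 93.1 CPM in set 2, against 3.79 and 8.52 CPM in layer 6 cells, 11.5-fold higher (7.79 to 17.6), and among neurons only it was 11.4-fold higher (7.20 to 19.2). Its relative *SORCS1* was at 53.1 and 99.4 CPM against 13.3 and 24.5 CPM, 4.31-fold higher (3.40 to 5.53) and 8.18-fold among neurons only (5.53 to 12.6). *POU3F1*, also known as SCIP and expressed in corticospinal neurons, was at 72.3 and 127 CPM against 24.7 and 14.8 CPM, 6.74-fold higher (5.22 to 8.82). *IQCJ* was 7.55-fold higher (6.24 to 9.20), *C1QL3* 8.07-fold (5.36 to 12.7) and *DKK2* 6.78-fold (4.17 to 11.7). *FABP3*, a fatty acid binding protein, was among the most abundant of them, at 1056 and 1061 CPM against 321 and 249.7 CPM, and *LUZP2* stood at 551 and 885 CPM against 197 and 263 CPM. *ATP10A*, a phospholipid flippase, *GABRA2*, *PCP4* and *CCN3* completed the 12 largest. Among neurons only, *THRB*, a thyroid hormone receptor (8.19-fold, 5.08 to 14.0), *ITM2A* and *LXN* joined them.

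By list, 3 of 16 subcerebral layer 5 genes were higher (*PCP4*, *POU3F1* and the neuropeptide gene *ADCYAP1*), 1 was lower (*IGFBP4*, which lost its call among neurons only), and the median log2 difference was 0.08. *BCL11B* stood at 207 and 215 CPM against 81.6 and 149 CPM, a ratio of 1.65 (1.48 to 1.83), and *LDB2* at 217 and 410.4 CPM against 247 and 585 CPM. *ETV1* passed the fold among neurons only, at 34.7 and 53.8 CPM against 0 and 15.8 CPM. *BHLHE22*, a transcription factor needed for corticospinal projections, was 3.04-fold higher (2.73 to 3.38), at 340 and 353 CPM against 117 and 115 CPM. It was the 1 higher gene of 10 corticofugal regulators compared, of which 2 were lower (*NR4A3* and *ZNF521*), with a median log2 difference of -0.76. None of the 10 layer 6 and subplate genes outside the rule was past the fold, and their median was -0.75. Among neurons only 1 of 10 was higher, *THSD7B* (4.01-fold, 2.63 to 6.37), and 1 lower, the semaphorin *SEMA3E* (5.31-fold, 3.74 to 7.67). *SOX5* was at 735 and 565 CPM in members and 862 and 1359 CPM in layer 6 cells, *TBR1* at 12.4 and 22.9 CPM and 34.1 and 40.8 CPM.

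Lower genes of the neuron comparison were led by *RGS6*, a regulator of G protein signaling, at 5.55 and 5.13 CPM against 131 and 169 CPM, 30.7-fold lower (20.1 to 49.1). The atypical cadherin *FAT3* was at 69.4 and 49.2 CPM against 216 and 404 CPM. The others of the 12 were *UTRN*, *ADAMTSL1*, *RPRML*, *BRINP2*, *CACNA2D3*, *CADPS2*, *PCDH15*, *SESN3* and *NCALD*, between 5.49-fold and 18.9-fold lower. *WNT7B*, a WNT ligand of deep layers, was also lower, at 10.2 and 15.5 CPM against 37.9 and 68.9 CPM over all cells, and was the 1 gene of the R-spondin and WNT list past the fold among neurons only. Over all cells 4 of 15 genes of that list were lower (*FZD6*, *WNT7B*, *LEF1* and *APCDD1*) and none higher, with 3.78% of all genes lower. Of the contactin list *CNTNAP4*, the last of the 12, was lower, at 7.91 and 8.50 CPM against 41.7 and 64.8 CPM over all cells.

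The third comparison asks how members with an *RSPO3* UMI (395 cells, median 8633 UMIs) differ from those without (287 cells, median 6901 UMIs). Of 8919 genes compared, 11 were higher with *RSPO3* (0.123% of all genes) and 90 lower (1.01%). The higher genes with a symbol were *ATP10A* (131 and 99.7 CPM against 18.6 and 26.9 CPM, 4.09-fold, 3.05 to 5.58), *SORCS1* (3.09-fold, 2.43 to 3.97), *GABRA2* (2.62-fold, 1.95 to 3.56), *SLC41A2*, *THSD7B*, *FABP3* and *RPH3A*. *BCL11B* was at 221 and 251 CPM with *RSPO3* and 175 and 157 CPM without, and *LDB2*, *CRYM* and *LYPD1* were not past the fold. *TLE4*, a gene of the rule, was at 144 and 165 CPM with *RSPO3* and 565 and 431 CPM without.

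The 12 genes that were most strongly lower in members with *RSPO3* included several known from progenitors and dividing cells. *SOX2*, a stem cell factor, was at 4.87 and 0.35 CPM with *RSPO3* and 81.7 and 38.9 CPM without, and *SLC1A3*, a glial glutamate transporter, at 6.49 and 2.82 CPM and 115 and 52.1 CPM. *UBE2C*, *TOP2A*, *CENPF* and *PTTG1*, which act in cell division, and *GLI3*, *PLPP3*, *SOX6*, *GDPD2*, *RORA* and *ZFP36L1* were the others of the 12. Of the radial glia list, 6 of 9 genes compared were lower and none was higher. Without *FABP7*, this list summed to 109 and 67.7 CPM with *RSPO3* and to 725 and 392 CPM without. The shares of cells lay closer together. At least 2 of these 10 genes were found in 9.11% of members with *RSPO3* and in 11.8% of those without. None was found in 254 of 395 and 188 of 287 members. At least 2 cycling genes were found in 6.62% of members without *RSPO3* and in 2.78% of those with it. Of the upper layer list 4 of 13 were lower with *RSPO3* (*LHX2*, *UNC5D*, *PLXNA4* and *PTPRK*), and the same 4 genes were lower among neurons only. Among neurons only, 10 of 8772 genes were higher (0.114%) and 24 lower (0.274%), 7 and 17 of them shared. *FABP3* and *RPH3A* lost their calls there, with log2 differences of 0.88 and 0.76. Of the 12 lower genes named above, *RORA* was the 1 with enough UMIs to be compared among neurons only, at 5.83 and 10.1 CPM against 87.4 and 53.0 CPM, and the radial glia and cycling genes set those limits. *RORA* was followed there by *IL1RAPL2*, *PTPRK*, *COL12A1*, *GALNT14*, *KCNJ3* and *LHX2*. When cells with at least 2500 UMIs were thinned to that number, 4 of the 11 higher genes and 40 of the 90 lower genes remained past the fold.

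A graded picture was seen for some genes across the number of positive genes held, from 2 (184 members) over 3 to 4 (239) to 5 to 6 (259). *POU3F1* stood at 25.2, 96.4 and 174 CPM in these classes, *SORCS3* at 15.7, 67.2 and 122 CPM, *FABP3* at 385, 969 and 1418 CPM and *LUZP2* at 373, 747 and 1088 CPM. *BCL11B* was lowest in the first class of each set, at 76.5, 264 and 210.0 CPM in set 1 and 98.6, 229 and 255 CPM in set 2, and *LDB2* had no common order, at 173, 234 and 221 CPM in set 1 and 451, 410 and 394 CPM in set 2. *LYPD1* was at 581, 808 and 615 CPM over both sets and went down in set 1, at 857, 639 and 382 CPM. *CRYM* (52.2, 62.5 and 59.7 CPM), *PCP4* (51.3, 108 and 77.0 CPM) and *NEFM* (352, 482 and 481 CPM) were not highest in the last class. *HDAC9*, *NEFL* and *GABRA2* were highest there. *TLE4* went down, at 457, 358 and 124 CPM, and *SOX2* was at 77.5 CPM in the lowest class and at 0.58 and 1.53 CPM in the others. The same order held in each set for *POU3F1*, *SORCS3*, *FABP3*, *LUZP2* and *TLE4*. Depth moved with the classes, with medians of 6066, 7004 and 9986 UMIs. Within members of 4000 to 10000 UMIs, where the medians were 6424, 7082.5 and 8212 UMIs, *POU3F1* was at 21.6, 80.8 and 118 CPM and *FABP3* at 382, 917 and 1322 CPM. *POU3F1*, *SORCS3*, *FABP3* and *LUZP2* kept their order in each set within this range. *TLE4*, which the rule limits, did not in set 1, where it was at 424, 136 and 145 CPM. When all members were split into 4 classes by depth, *POU3F1* was at 28.5 CPM in the shallowest and at 186 CPM in the deepest. The part of depth in these values was not tested beyond this.

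**Figure D5:**
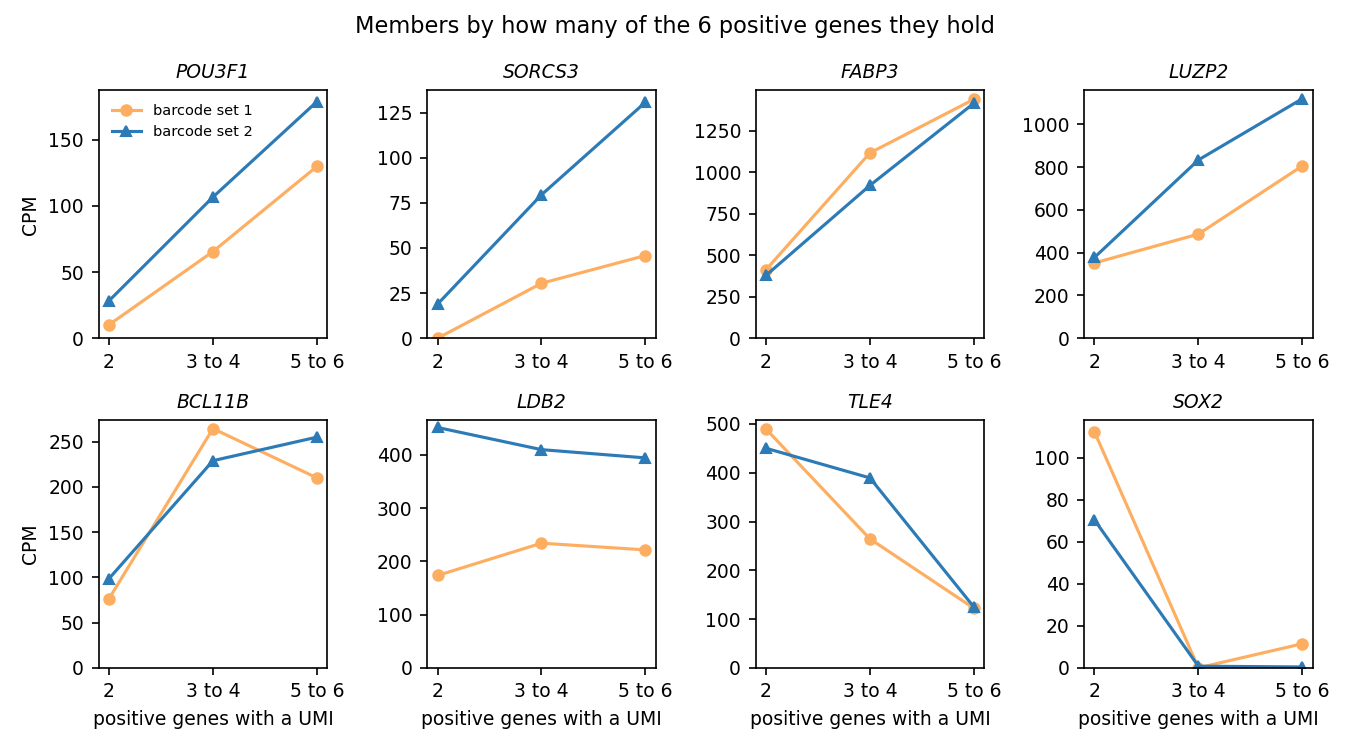
Levels in CPM of 8 genes in members that hold 2, 3 to 4 or 5 to 6 of the 6 positive genes, in barcode set 1 (orange circles) and set 2 (blue triangles), with each axis starting at 0. *POU3F1*, *SORCS3*, *FABP3* and *LUZP2* are higher in each class than in the one before in both sets, *TLE4* is lower in each, and *SOX2* is high only in the class with 2 positive genes.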

How the data were processed

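The cortex of 1 E39 ferret embryo was profiled with the 10x Genomics droplet platform. Reads were run through Cell Ranger by the authors, who deposited raw UMI counts for each gene and cell (22008 genes, 23482 cells, 86935280 UMIs). The genome build, annotation and Cell Ranger version are not given in the sources used here. Of the gene symbols, 21910 are in the RefSeq ferret annotation, which was used for names only. Cells with at least 750 genes were kept (23241). No member lay above 5000 genes or at 10% or more mitochondrial UMIs, the limits given in the methods of the study. No doublet caller was run, and doublets were not removed.

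Counts were summed per group and barcode set and expressed as CPM. Shares were given Clopper-Pearson intervals, ratios conditional binomial intervals, and single counts Poisson intervals, all exact at 95%. Genes were compared with at least 30 UMIs in both groups together and a mean of at least 10 CPM, without the genes that define the groups. With 1 embryo no test was made. Named genes are the 12 largest and 12 smallest log2 ratios past the fold in each set, without LOC symbols, plus the genes of the rule and genes of the lists that are past the fold or define a role. The members, the 25 gene lists and the comparisons were chosen with earlier results of these data known. The limits to neurons only and to 4000 to 10000 UMIs, and upper layer cells without the further marker, were added after seeing the data. That marker and 3 other genes of the lists are not reported here, and were left out of the lists. Where no member held a UMI, 3 counts over the 682 cells set the upper limit. The calculation was tested on simulated data. Tools were scipy 1.17.1, scikit-learn 1.9.0, numpy 2.4.6 and pandas 2.3.3 under Python 3.11.15. The mouse cells of the series were not used here.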

Additional observations from a re-analysis of the deposited data

How the results depend on the processing

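No paired analysis was possible because no column is tied to a labelled sample and no test was made. The share of members, 2.93%, was 3.19% with at least 1000 genes, 4.57% with at least 1 and 2.14% with at least 3 positive genes. It was 1.90% with at least 2 *FEZF2* UMIs, 2.04% with fewer than 2 layer 6 genes and 3.38% with no such limit. Among cells with at least 2500 UMIs, thinned to that number, it was 2.17%. It was 1.49% in set 1, 4.06% in set 2, 6.17% among cells of 4000 to 10000 UMIs and 3.56% among neurons only. It did not change under the limits stated by the study. Against layer 6 cells, the 45 higher genes became 22 with a mean of at least 50 CPM, 70 with at least 3 positive genes, 101 in set 1 alone and 90 in set 2 alone. The 357 lower genes became 82 with a mean of at least 50 CPM, 158 without cells of another class, 131 among neurons only, 224 at 4000 to 10000 UMIs and 608 in set 1 alone. Against upper layer cells, the 209 higher genes became 93 and the 157 lower genes 90 with a mean of at least 50 CPM, and the lower genes 103 at 4000 to 10000 UMIs and 270 in set 1 alone. For the *RSPO3* split, the 11 higher genes became 19 after thinning (4 of them shared), 75 in set 1 alone and 24 in set 2 alone, and the 90 lower genes 138 with 1 CPM added, 148 without a filter on low counts and 24 among neurons only. A call in 1 set alone needs no second set, which raises those counts. On the log2 scale, *SOX5* against upper layer cells turned to 0.026 without cells of another class, 0.24 at 4000 to 10000 UMIs, 0.072 after thinning and 0.41 in set 1 alone, *POU3F1* to -0.032 in set 1 alone, and *CRYM* in the *RSPO3* split to -0.18 in set 1 alone. Apart from where a setting's own construction shows it, the cause was not tested. The genes followed through these settings otherwise kept their direction, but their values moved beyond the counting interval in 138 (layer 6 cells), 148 (upper layer cells) and 35 (*RSPO3* split) combinations of gene and setting, and stayed within it in 324, 342 and 104. A further 24 gave no value. Members of set 1 hold 885327 UMIs, so that a gene at 5 CPM there rests on fewer than 5 UMIs.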
